A study of Mus musculus with 12 samples.

Results

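The account covers 10 of the 33696 genes listed in the deposited single-cell tables, Cdh10, Fat3, Tmeff2, Edil3, Dlgap1, Nbea, Rimbp2, Myo16, Ablim3 and Mcc, each found by its symbol on 1 row of the gene list. They were chosen as genes known mainly from nervous tissue or cell adhesion and selected on their levels, which were higher in γδ T cells of mice labelled GFI1 KO than of mice labelled WT. The difference between genotypes is therefore given for them as a description, without a test. The study asked how loss of GFI1, a zinc finger repressor of transcription, changes γδ T cells and their thymic precursors. Cells were taken from adult mice of the C57BL6/J background that were either WT or carried a germline GFI1 KO, so that every cell of the KO mice lacked the gene from the start of development. Splenic CD3+ CD4- γδ T cells, thymic CD4- CD8- γδ T cells and thymic CD4- CD8- precursors of the stages DN1 to DN3 were sorted after magnetic depletion of B cells, myeloid cells and NK cells, with part of the CD8+ cells also removed from thymus. WT and KO cells carried different hashtag antibodies, were run together in 1 droplet pool and were then split by hashtag, which gives 12 libraries from 6 pools, 2 per genotype in each of the 3 compartments. How many mice entered a library is not given in the sources used here.

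The 10 genes belong to groups that are best known at contacts between cells. Cadherins such as Cdh10, a type II classical cadherin of the brain, and Fat3, a giant atypical cadherin that shapes neurons of the retina, sit in the membrane and bind partners on neighbouring cells. Tmeff2 is a membrane protein with EGF-like and follistatin-like domains, and Edil3 is a secreted ligand of integrins. Dlgap1 is a scaffold of the postsynaptic density, Rimbp2 links calcium channels to the presynaptic release site, and Nbea is a BEACH domain protein of membrane traffic in neurons. Myo16 is an unconventional myosin of the brain, Ablim3 binds actin through a villin headpiece and carries LIM domains, and Mcc was named for its mutation in colorectal cancers and acts on Wnt signalling and cell migration. γδ T cells that make IL-17, called γδT17 cells, include an innate-like subset whose receptor uses the Vγ6 chain, encoded by Trgv6, mostly with the δ chain of Trdv4. GFI1 binds DNA at sites with an AATC core and recruits histone-modifying enzymes to them.

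Because GFI1 sites share that core, the promoter windows of 3 of the genes are shown, those of the set that hold an AATC. Each window runs 5′ to 3′ on the strand of its gene, from 250 bases before the annotated start to 50 bases after it, in the RefSeq annotation of build GRCm38.p6, and capitals mark AATC or its reverse complement GATT. The windows are Tmeff2 at chr1:50927273-50927572, Cdh10 at chr15:18820079-18820378 and the second of 2 Dlgap1 starts at chr17:70561497-70561796, all on the plus strand.
Tmeff2: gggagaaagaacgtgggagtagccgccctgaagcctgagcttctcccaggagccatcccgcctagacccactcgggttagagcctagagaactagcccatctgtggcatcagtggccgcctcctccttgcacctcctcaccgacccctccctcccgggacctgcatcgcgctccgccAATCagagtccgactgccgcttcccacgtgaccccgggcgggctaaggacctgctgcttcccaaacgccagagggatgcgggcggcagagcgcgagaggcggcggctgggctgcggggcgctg
Cdh10: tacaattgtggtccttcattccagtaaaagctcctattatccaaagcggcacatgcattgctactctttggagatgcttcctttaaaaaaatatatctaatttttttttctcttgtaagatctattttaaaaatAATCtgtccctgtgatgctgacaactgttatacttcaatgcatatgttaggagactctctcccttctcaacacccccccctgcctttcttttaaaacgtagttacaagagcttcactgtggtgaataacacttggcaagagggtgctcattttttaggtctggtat
Dlgap1: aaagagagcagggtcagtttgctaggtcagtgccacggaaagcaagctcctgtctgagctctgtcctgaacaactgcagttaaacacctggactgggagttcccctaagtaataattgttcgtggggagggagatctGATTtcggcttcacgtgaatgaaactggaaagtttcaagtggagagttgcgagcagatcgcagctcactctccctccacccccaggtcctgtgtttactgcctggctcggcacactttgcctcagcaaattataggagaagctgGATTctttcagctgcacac
Windows were found for 7 of the 10 genes, 8 windows in all because Dlgap1 has 2, and Mcc, Ablim3 and Edil3 had no entry. The core occurred in 3 of the 8 windows, against 73.1% of the 32851 windows of all genes. Their GC content was 75.0% for Nbea, 71.3% for Fat3, 67.7% for Tmeff2, 66.0% for Myo16 and 62.7% for Rimbp2. It was 57.7% and 51.0% for Dlgap1 and 37.7% for Cdh10, with a median of 52.7% over all windows. What part base content had in the motif counts was not tested. The longer AATCAC was in none of the 8 and in 10.4% of all windows. TGCTGA, the core letters of MAF sites, was in 2 of the 8, the Dlgap1 window printed above and that of Cdh10, against 19.5% of all. All motifs were read on both strands, and AATC lies within AATCAC. These letters are a description of the windows, and binding was not measured.

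Whole-library facts that bear on the values were as follows. After the study's cell filters, 6795 to 11679 cells per library were kept, with a median of 4947 to 6853 UMIs per cell. Levels are given as UMIs of a gene per 1000000 UMIs of all genes in a library or class of cells (CPM). The KO libraries showed no loss of the Gfi1 transcript, which stood at 11.8 and 18.0 CPM in splenic WT and 18.1 and 18.1 in splenic KO, 16.5 and 17.6 against 28.9 and 19.2 in thymic γδ T cells, and 44.7 and 40.6 against 70.6 and 56.6 in DN1-DN3 cells. The 3′ reads need not come from the deleted part of the gene, so its level does not check the labels, and KO and WT below mean the libraries labelled so. Trgv6 was the leading Trgv gene in 66.0% and 57.7% of splenic KO cells with a Trgv call, against 4.31% and 3.44% in WT, and in 44.1% and 53.3% of thymic KO γδ T cells, against 0.840% and 0.991%. KO and WT libraries of a pool shared no cell barcode, and no pair of libraries from different pools shared more than 34. KO and WT cells of a pool shared a droplet run, and doublets of 1 hashtag were not removed.

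The adhesion and surface genes were low in WT libraries, at no more than 15.7 CPM, and reached 30.7 to 495 CPM in both γδ T compartments of KO mice. Cdh10 was measured at 15.7 and 11.6 CPM in splenic WT libraries and 254 and 264 in KO, at 6.80 and 7.28 against 349 and 495 in thymic γδ T cells, and at 2.15 and 1.49 against 69.7 and 16.7 in DN1-DN3 cells. Its log2 difference between KO and WT in the edgeR fit over all genes was 4.35 (SE 0.53, n = 2 libraries per group), 6.03 (SE 0.58) and 4.53 (SE 0.58) in the 3 compartments in that order. No WT library reached the lowest KO library of its compartment, and thymic γδ T cells of KO mice held the highest level of the 6 groups without overlap with the splenic ones. Fat3 followed the same order, at 0.570 and 0.588 CPM in splenic WT, 41.7 and 37.4 in splenic KO, 0.543 and 0.893 in thymic WT and 82.9 and 95.4 in thymic KO. In DN1-DN3 cells Fat3 stayed low in all 4 libraries, with 11 UMIs over both WT libraries and 24 over both KO libraries.

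Tmeff2 and Edil3 had the opposite order between the γδ T compartments. Tmeff2 was at 1.40 and 3.16 CPM in splenic WT and 258 and 390.3 in splenic KO, against 0.662 and 0.321 in thymic WT and 145 and 83.0 in thymic KO. Its DN1-DN3 levels were 0.453 and 0.241 CPM in WT and 63.1 and 14.8 in KO. Tmeff2 had the largest fitted differences of the set in thymus and in DN1-DN3 cells, 8.0 (SE 0.81) and 6.77 (SE 0.82) on the log2 scale. Edil3 was at 1.78 and 1.63 CPM in splenic WT and 104 and 139 in splenic KO, and at 1.22 and 1.28 against 65.8 and 30.7 in thymus. In DN1-DN3 cells it was at 0.243 and 0.0482 CPM in WT and 23.1 and 5.26 in KO. For both genes the splenic KO libraries lay above the thymic KO libraries without overlap, and the thymic KO libraries lay above those of DN1-DN3 cells.

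**Figure D1:**
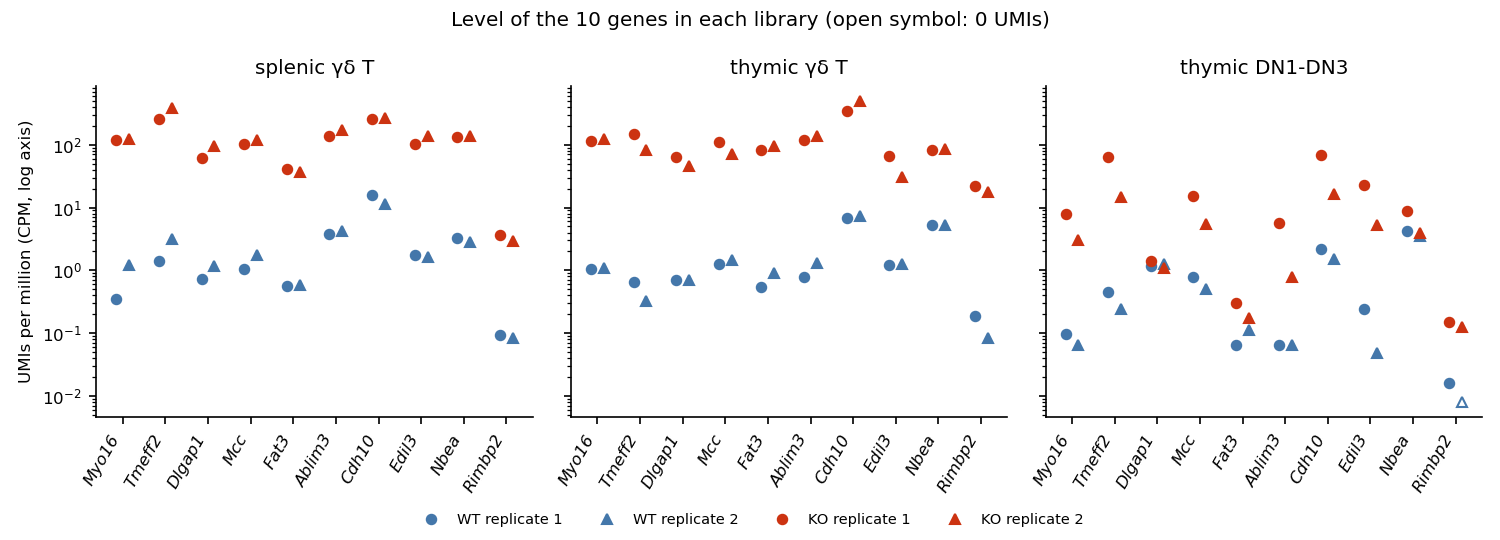
Level of each of the 10 genes in CPM (log axis) in the 12 libraries, with WT in blue, KO in red, circles for replicate 1, triangles for replicate 2 and an open symbol for a library with 0 UMIs. All 10 genes lay higher in both KO libraries than in both WT libraries of spleen and of thymic γδ T cells, and Dlgap1 and Nbea overlapped between genotypes in DN1-DN3 cells.

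The synaptic genes were higher in KO γδ T cells, and in the precursors 2 of the 3 overlapped between genotypes. Dlgap1 was at 0.736 and 1.19 CPM in splenic WT and 61.9 and 95.3 in splenic KO, and at 0.696 and 0.698 against 62.6 and 46.3 in thymic γδ T cells. In DN1-DN3 cells its WT and KO levels overlapped, at 1.18 and 1.25 against 1.41 and 1.08 CPM, a log2 difference of 0.03 (SE 0.29). Nbea was detected in every WT library, at 3.28 and 2.84 CPM in spleen, 5.36 and 5.30 in thymic γδ T cells and 4.16 and 3.53 in DN1-DN3 cells. Its KO levels were 133 and 138 CPM in spleen, 83.0 and 85.6 in thymic γδ T cells and 8.66 and 3.89 in DN1-DN3 cells, where the groups overlapped. Rimbp2 was at 0.0950 and 0.0840 CPM in splenic WT, 3.65 and 2.92 in splenic KO, 0.187 and 0.0837 in thymic WT and 22.2 and 18.0 in thymic KO. Rimbp2 had 1 UMI over both DN1-DN3 WT libraries and 14 over both KO libraries.

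The cytoskeletal and signalling genes reached similar levels in the KO libraries of spleen and thymus. Myo16 was at 0.356 and 1.21 CPM in splenic WT and 119 and 122 in splenic KO, and at 1.04 and 1.10 against 113 and 124 in thymic γδ T cells. Its DN1-DN3 levels were 0.0971 and 0.0642 CPM in WT and 7.87 and 3.06 in KO. Ablim3 was at 3.78 and 4.17 against 137 and 174 CPM in spleen, and at 0.798 and 1.31 against 118 and 137 in thymus. In DN1-DN3 cells it was at 0.0647 and 0.0642 CPM in WT and 5.64 and 0.782 in KO. Mcc was at 1.05 and 1.75 against 103 and 118 CPM in spleen, at 1.26 and 1.45 against 111 and 72.4 in thymus, and at 0.793 and 0.514 against 15.3 and 5.53 in DN1-DN3 cells. For these 3 genes and for Dlgap1 the ranges of the splenic and thymic KO libraries overlapped, so their order was not resolved.

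Over the set, both KO libraries lay above both WT libraries for 10 of 10 genes in spleen, 10 of 10 in thymic γδ T cells and 8 of 10 in DN1-DN3 cells. Of the 14925 genes tested, 34.8%, 32.5% and 27.8% did so in the same compartments, and by the edgeR test 54.8%, 49.7% and 22.9% changed in either direction. The set was chosen for this difference, so nothing is read from these counts. The fitted log2 differences ran from 4.35 to 7.26 in spleen with a median of 6.21, and from 4.11 to 8.0 in thymus with a median of 6.65. In DN1-DN3 cells they ran from 0.03 to 6.77. The value of Myo16 in spleen rested on the WT libraries, and was 8.43 without WT replicate 2. The median over all genes was 0.00 in spleen and thymus and -0.02 in DN1-DN3 cells. In bulk sums over a library, more cells that express a gene and more RNA per cell cannot be told apart, and the per-cell values below separate them in part. The 2 DN1-DN3 KO libraries stood apart from each other. Replicate 1 was above replicate 2 for all 10 genes, by 1.21 times for Rimbp2 to 7.21 times for Ablim3.

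Detection per cell followed the levels. Cdh10 was found in 58.8% and 61.6% of splenic KO cells and in 57.8% and 73.0% of thymic KO γδ T cells, against 3.90% and 3.23% and 2.71% and 3.38% in WT. Tmeff2 was found in 54.8% and 71.1% of splenic and 34.1% and 23.2% of thymic KO cells. Dlgap1 was found in 12.5% and 20.1% of splenic KO cells, with 2.97 and 2.82 UMIs per cell in which it was found. Rimbp2 was found in 1.84% and 1.55% of splenic and 10.5% and 8.47% of thymic KO cells, with 1.12 to 1.32 UMIs per such cell. After each cell was thinned to 2000 UMIs, Cdh10 remained in 33.6% and 36.1% of splenic and 40.6% and 52.5% of thymic KO cells, against 2.03% and 1.61% and 1.25% and 1.64% in WT.

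A splenic KO cell held UMIs of 3.2 and 3.72 of the 10 genes on average in the 2 replicates, against 0.0918 and 0.107 in WT. At least 3 of the genes were found in 62.6% and 73.9% of splenic KO cells and none in 6.92% and 3.13%. Thymic KO γδ T cells held 2.87 and 2.86 of the genes on average, but 27.7% and 15.6% of them held none. All 10 were found together in 3 cells of 1 splenic KO library and in 9 cells of 1 thymic KO library. DN1-DN3 KO cells held 0.569 and 0.202 of the genes on average, against 0.0544 and 0.0451 in WT. Thinned to 2000 UMIs, the means were 1.70 and 2.06 in splenic KO cells and 1.71 and 1.65 in thymic KO cells.

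**Figure D2:**
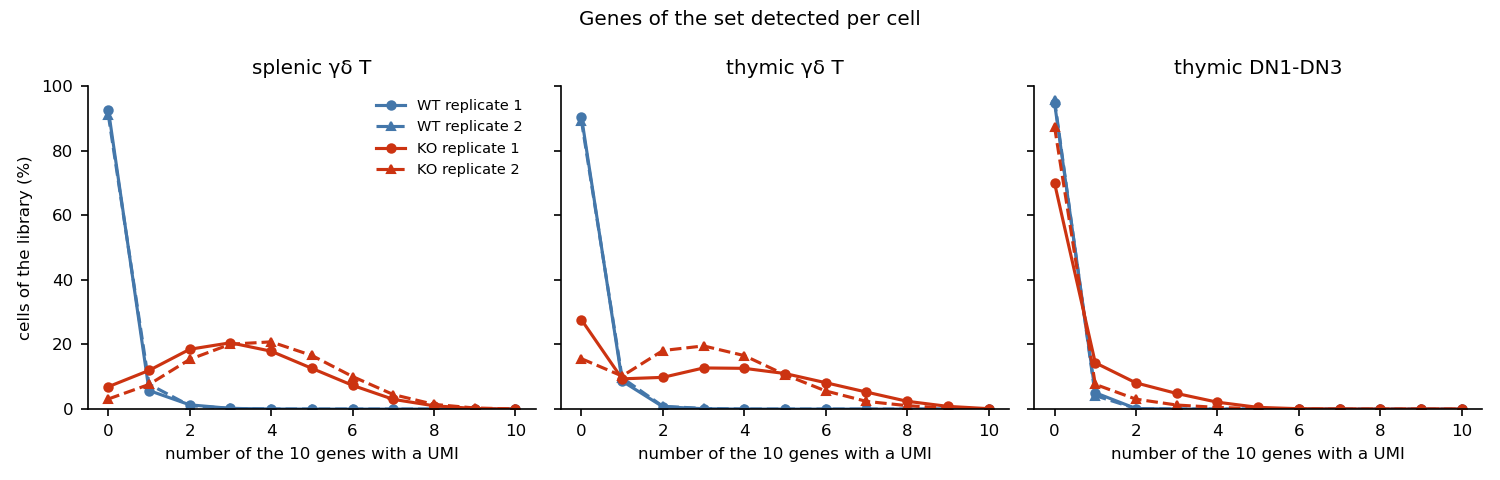
Share of the cells of a library (percent, linear axis) that held UMIs of 0 to 10 of the genes, in WT (blue) and KO (red), with circles and solid lines for replicate 1 and triangles and dashed lines for replicate 2. Splenic KO cells peaked at 3 or 4 genes, and thymic KO γδ T cells split into cells with none (27.7% and 15.6%) and cells with several.

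The next question was whether the genes followed the Trgv6 receptor within KO libraries. Each cell was assigned the Trgv gene with the most UMIs, and cells called for Trgv6 were compared with cells called for any other Trgv gene. Most of the other-called cells carried a Trgv2 call. They were 1322 of 1761 and 2793 of 3379 in splenic KO, and 1841 of 2569 and 1699 of 2362 in thymic KO. Trgv2 was also the call of 40.3% and 44.3% of splenic WT cells and of 39.2% and 43.1% of DN1-DN3 KO cells. The genes were chosen for high levels in KO libraries, where Trgv6-called cells are far more common than in WT. The choice is therefore not independent of this comparison, although it is made between cells of 1 library. In spleen the levels of both classes lay close together. Cells called for another Trgv gene held Tmeff2 at 247 and 399 CPM against 280.0 and 396 in Trgv6-called cells, Cdh10 at 233 and 258 against 279.9 and 277, and Nbea at 119 and 146 against 148 and 139. The 10 log2 differences, Trgv6-called minus other-called, ran from -0.08 (SE 0.33) for Rimbp2 to 0.50 (SE 0.26) for Fat3, with a median of 0.12. By edgeR's quasi-likelihood test with the library as a block and Benjamini-Hochberg adjustment, 0 of 10 were called higher, where 0.0151% of the 13219 genes tested were higher and 0.197% lower. None had an unadjusted p under 0.05, and DESeq2 called 0. Fat3 was called in 2 alternatives, without the low-count filter (adjusted p = 3.5e-06 by edgeR) and with the splenic sums alone (adjusted p = 0.0155).

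Trdv4, the δ chain usual with Trgv6, was also common in splenic KO cells with other calls. It was found in 84.4% and 86.0% of them, with a median of 5625 and 5586 UMIs per cell, against 90.4% and 89.7% of Trgv6-called cells. In splenic KO cells gated on Il2rb, Klrd1, Xcl1, Nkg7 and Cd160, markers of another γδ T state, Trdv4 was found in 4.21% and 8.86%, with medians of 7082 and 6199 UMIs. Trgv6 was at 84.3 and 108 CPM in other-called cells against 348 and 365 in Trgv6-called cells. What part receptor RNA missed in a cell had in the calls was not tested. Among splenic KO cells called for Trgv1, Myo16 was at 92.9 and 112 CPM and Mcc at 107 and 111, and among those called for Trgv4, Tmeff2 was at 193 and 305 and Ablim3 at 106 and 195. The 95 and 79 splenic KO cells of the Il2rb gate held the 10 genes at 0 to 12.3 CPM, and at most 6.33% of them had a UMI of any single gene.

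In thymic γδ T cells of KO mice all 10 genes had higher levels in Trgv6-called cells in both libraries. Cdh10 was at 581 and 625 CPM in them and at 194 and 345 in other-called cells. Myo16 was at 192 and 161 against 59.2 and 85.9, Fat3 at 152 and 124 against 39.7 and 61.7, and Tmeff2 at 259 and 105 against 77.0 and 58.1. The log2 differences ran from 1.16 (SE 0.17, adjusted p = 0.00398) for Mcc to 1.5 (SE 0.25, adjusted p = 0.0134) for Fat3, with a median of 1.31, and the edgeR test called 9 of 10, where 19.7% of all genes were called higher and 20.5% lower. The genes were chosen in libraries rich in Trgv6-called cells, so nothing is read from that count. Dlgap1 had a difference of 1.48 (SE 0.42) with an adjusted p of 0.0737, and was called without the block (adjusted p = 0.0288) and by DESeq2. The size rested on the library, with a median of 0.93 without KO replicate 1 and 1.73 without KO replicate 2, and the ratio of Trgv6-called to other-called cells had a median of 3.26 in replicate 1 and 1.81 in replicate 2.

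**Figure D3:**
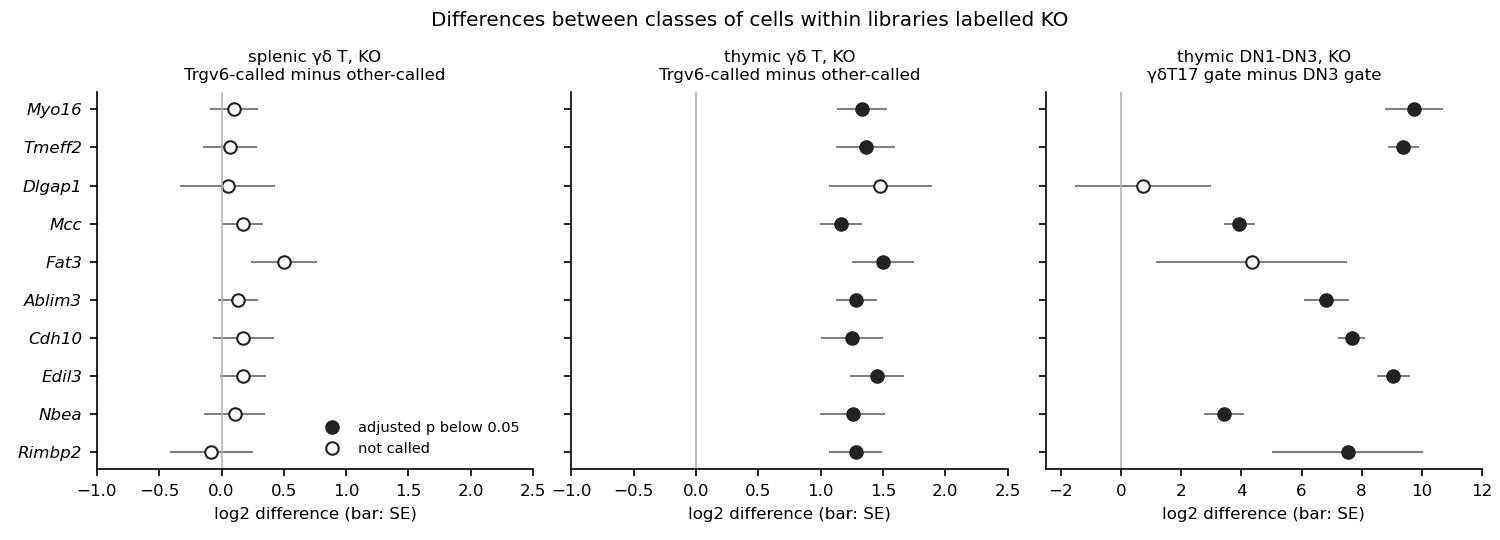
Fitted log2 difference between classes of cells within KO libraries for each gene, with the SE as a bar and filled points for adjusted p below 0.05, on a wider axis for DN1-DN3 cells. Splenic values lay between -0.08 and 0.50 and thymic values between 1.16 and 1.5. The DN1-DN3 values of Myo16, Fat3 and Rimbp2 rest on 1, 2 and 0 UMIs in the DN3 gate and are not bounds. Rimbp2 is drawn filled in DN1-DN3 cells but is not counted as called there.

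Where thymic γδ T cells were restricted to a γδT17 gate, at least 2 UMIs summed over a marker list that includes Cxcr6, Il23r, Il1r1 and Il17re and at most 1 of each other marker list, the difference was smaller. This comparison was chosen after seeing the data. The median log2 difference was 0.35 and 4 of the 10 genes were called, where 0.393% of the 11442 genes tested were called higher. In gated cells without a Trgv6 call the genes stayed high, and the ratio of Trgv6-called to other gated cells had a median of 1.30 and 1.03 in the 2 libraries. The 632 and 391 thymic KO cells of the Il2rb gate held 9 of the genes at 0 to 4.49 CPM. Mcc was at 19.0 and 6.83 CPM there, and at 24.1 and 19.6 in the 112 and 50 cells of a myeloid marker gate, on 24 and 9 UMIs. The difference between thymus and spleen was tested itself, and passed for Ablim3 (1.15, SE 0.23, adjusted p = 0.0267 by edgeR), Mcc (0.99, SE 0.23, adjusted p = 0.0417), Edil3 (1.28, SE 0.28, adjusted p = 0.0426) and Myo16 (1.23, SE 0.28, adjusted p = 0.0483). Of all genes, 10.1% passed in that direction. This test includes the thymic comparison, to which the choice of genes is tied, so nothing is read from the count. For the other 6 genes it was 1.00 to 1.43, with adjusted p from 0.0613 to 0.212.

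**Figure D4:**
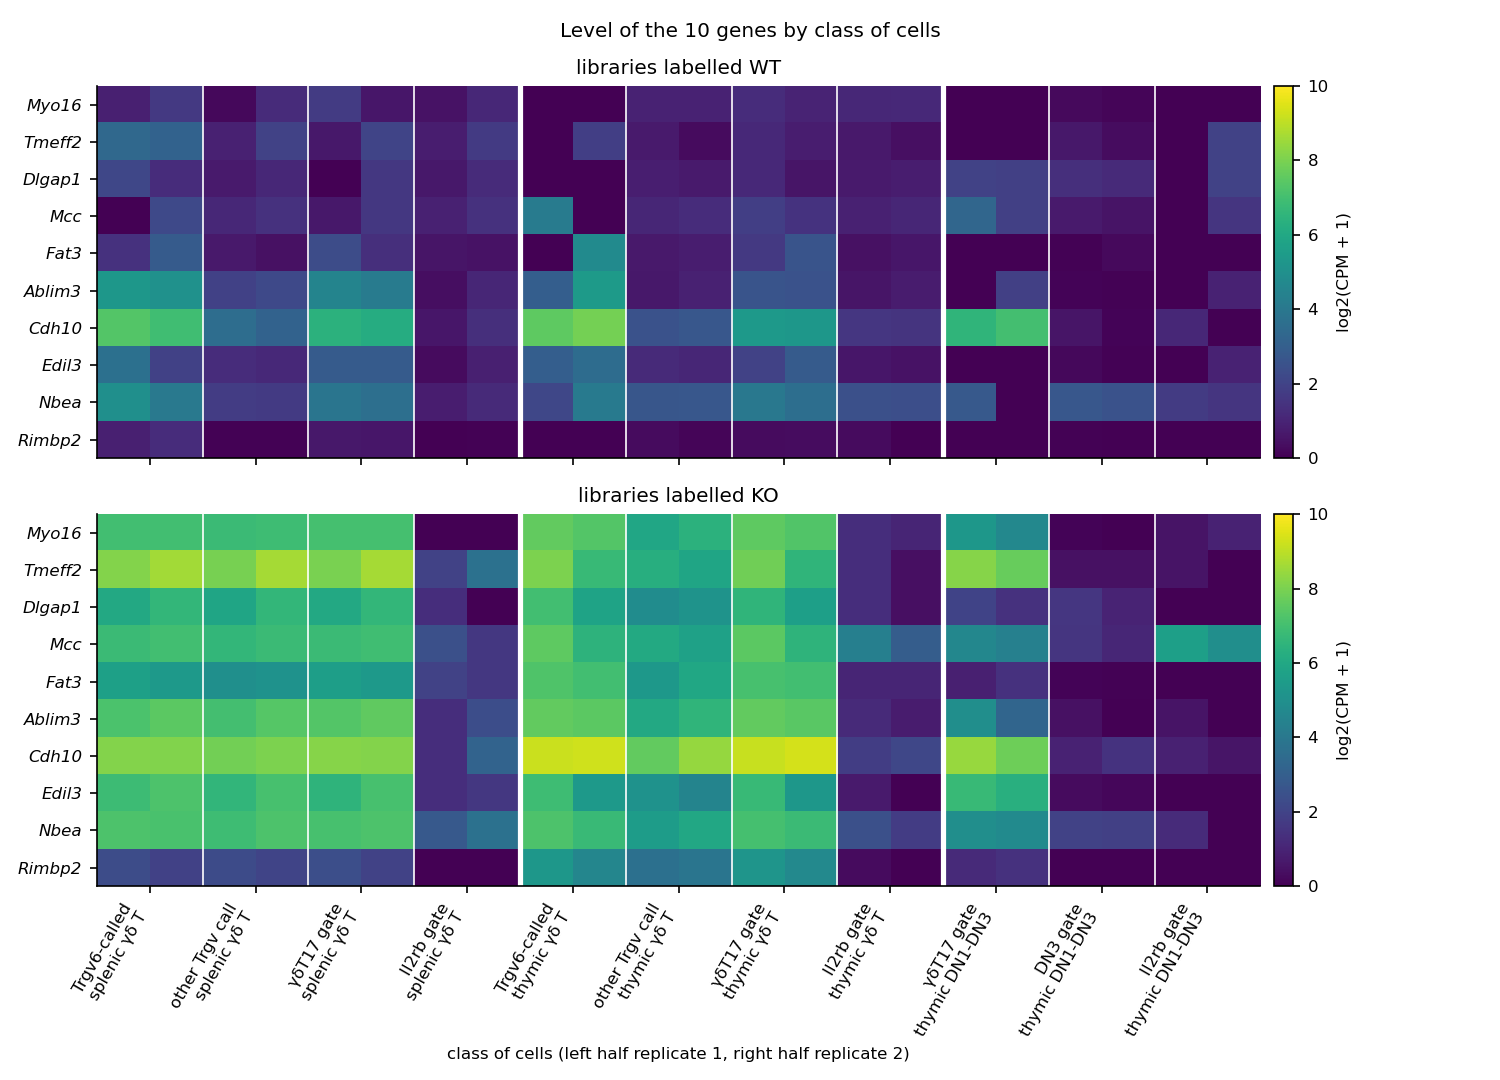
Level of the 10 genes as log2(CPM + 1) in classes of cells of WT (top) and KO (bottom) libraries, the left column of each class being replicate 1 and the right replicate 2. Reading along a row, each gene was lower in the Il2rb gate than in Trgv6-called cells of the same splenic or thymic KO library, the DN1-DN3 γδT17 gate was high for 7 of the genes, and Mcc was the gene also seen in the DN1-DN3 Il2rb gate, at 48.6 and 29.7 CPM.

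In the DN1-DN3 sort of KO mice 7 of the 10 genes were higher in cells gated on γδT17 markers than in cells gated on DN3 markers, at 8.50 CPM or more. The other 3 were at 2.98 CPM or less in the γδT17 gate. Their measured levels were also above those of the DN3 gate in both libraries, on few UMIs. The ratio for Dlgap1, 1.86, had a 95% interval of 0.80 to 3.82. The γδT17 gate held 576 and 300 KO cells, 8.24% and 3.97% of their libraries, and 59 and 63 WT cells, 0.819% and 0.843%. The DN3 gate, on Ptcra, Rag1, Rag2 and Il2ra, held 1894 and 3227 KO cells. Cdh10 was at 353 and 218 CPM in the γδT17 gate and at 0.917 and 1.73 in the DN3 gate. Tmeff2 was at 289.9 and 201 against 0.382 and 0.355, and Edil3 at 107 and 77.3 against 0.229 and 0.133. Nbea was at 29.8 and 26.3 against 2.91 and 2.71, Mcc at 23.4 and 19.5 against 1.91 and 1.11, and Ablim3 at 29.4 and 8.50 against 0.382 and 0. Myo16 was at 38.7 and 24.6 CPM, and over both libraries its ratio to the DN3 gate was 1212 with a 95% interval of 213 to 48283, since the DN3 gate held 1 UMI.

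Dlgap1, Fat3 and Rimbp2, which were high in γδT17-gated thymic γδ T cells, were near 0 in the same gate of the DN1-DN3 sort. Dlgap1 was at 2.98 and 1.70 CPM there and 1.99 and 1.02 in the DN3 gate, against 91.0 and 49.4 in the thymic γδ T gate. Fat3 was at 0.851 and 1.70 CPM, on 4 UMIs, and had 2 UMIs in the DN3 gate, against 137 and 125 in the thymic γδ T gate. Rimbp2 had 5 UMIs in the DN1-DN3 γδT17 gate and 0 in the DN3 gate. Its level of 1.42 CPM was 16.8 times the floor of 3 UMIs over the DN3 gate. That value takes no account of the counting error of the 5 UMIs and is not a bound. In the edgeR test of the γδT17 gate against the DN3 gate 7 genes were called higher, where 27.6% of all genes were called higher and 27.4% lower, and Dlgap1 (adjusted p = 0.826) was not. With the precursor sums fitted alone the same 7 of 8 genes were called, where 29.6% of all genes were called higher. The genes were chosen for high levels in KO γδ T cells, and the γδT17 gate held a larger share of KO than of WT precursors. That choice is therefore not independent of this comparison, and nothing is read from these counts or from those of the fits below. Fat3 and Rimbp2 had too few UMIs to pass the low-count filter in that fit and entered the test through their splenic and thymic counts. Their p-values are therefore given as values only, and neither gene is counted as called. For Rimbp2 the adjusted p was 0.0421, and 0.137 with equal numbers of cells in the 2 gates. For Fat3 it was 0.322 by edgeR, 0.00187 by DESeq2, which called 25.8% of all genes higher, and 0.00177 by edgeR without the filter, which called 17.9% higher. In the edgeR fit without the first KO library the calls of Mcc, Ablim3 and Nbea were lost, and without the second that of Nbea. The log2 differences of the 7 genes ran from 3.35 for Nbea to 11.7 for Myo16 without the first library. Without the second they ran from 3.47 for Nbea to 9.65 for Tmeff2. Edil3, Tmeff2, Cdh10 and Myo16 kept their calls in both fits, in which 19.1% and 23.6% of all genes were called higher. Each of these fits has 1 precursor library, which is assumed to vary like the splenic and thymic ones.

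Few of these precursor cells carried a Trgv6 call, and the genes were mostly outside them. Trgv6-called cells were 39 and 34 in the DN1-DN3 KO libraries. They held Tmeff2 at 183 and 61.2 CPM, Cdh10 at 174 and 102 and Edil3 at 119 and 40.8. Cells called for another Trgv gene held Tmeff2 at 44.5 and 11.4 CPM. Apart from Fat3, with 14 and 10 UMIs in all, no gene had more than 2.70% of its UMIs in Trgv6-called cells. The γδT17 gate held 23.1% and 28.4% of the Tmeff2 UMIs and 25.5% and 27.4% of the Cdh10 UMIs of the DN1-DN3 KO libraries, so that most of their UMIs lay outside it. Within the gate the ratio of replicate 1 to replicate 2 was 1.13 for Nbea to 3.46 for Ablim3 among the 7 genes that were high there, smaller than over all cells for each of them.

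Mcc was also found in other gates of the precursors. The Il2rb gate of the DN1-DN3 sort held 427 and 419 KO cells, and Mcc was found there in 13.3% and 8.35% of cells, on 108 and 64 UMIs, at 48.6 and 29.7 CPM. That was above its level in the γδT17 gate of the same libraries. The other 9 genes were at no more than 1.35 CPM in it. In WT the Il2rb gate of the same sort held Mcc at 0 and 1.92 CPM. In the 49 and 61 cells of the myeloid marker gate Mcc was at 10.5 and 12.4 CPM, on 5 and 9 UMIs. In the KO libraries the Il2rb gate held 15.1% and 20.6% of all Mcc UMIs.

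In WT libraries the genes were read in the same classes, of which the Trgv6 call and the γδT17 gate held fewer cells than in KO. The 188 and 229 Trgv6-called splenic WT cells held Cdh10 at 159 and 121 CPM, Ablim3 at 38.3 and 32.7 and Nbea at 30.7 and 15.7. Myo16, at 0.852 and 2.13 CPM, Dlgap1, at 3.41 and 1.42, and Mcc, at 0 and 3.56, stayed low in them. Cdh10 was at 84.4 and 72.3 CPM in the γδT17 gate of splenic WT cells, at 40.1 and 37.8 in that of thymic γδ T cells, on 681 and 690 cells, and at 91.0 and 128 in that of DN1-DN3 cells. The Il2rb gate of splenic WT cells, 4333 and 6225 cells of the same droplet runs, held Cdh10 at 0.520 and 1.54 CPM. In each of the 3 γδT17 gates the WT levels of Cdh10 lay below the KO levels without overlap. The thymic gates differed in receptor calls, with 11 and 14 Trgv6-called cells in WT against 675 and 1077 in KO. In those WT cells the highest level of any of the 10 genes was 633 and 507 CPM. Cdh10 was at 618 and 667 CPM in the KO ones, so no lower WT level is read there. The splenic gates differed too. Trgv6-called cells were 35 of 412 and 47 of 462 there in WT, and 797 of 1932 and 1103 of 3028 in KO. In the 35 and 47 splenic WT cells the highest level was 205 and 142 CPM, against 321 and 290 for Cdh10 in the KO ones.

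Co-detection was measured as the number of cells with UMIs of both of 2 genes over the number expected within strata of equal depth. Over the 45 pairs the median ratio was 1.14 and 1.08 in the splenic KO libraries, with 44 pairs above 1 in each, and 1.58 and 1.32 in the thymic KO libraries, with all 45 above 1. Within Trgv6-called cells the medians were 1.11 and 1.06 in spleen and 1.11 and 1.09 in thymus. The pairs furthest above expectation in thymic KO cells were Dlgap1 with Edil3 in replicate 1, at 2.05, found together in 334 cells against 163 expected, and Tmeff2 with Edil3 in replicate 2, at 2.12, in 361 cells against 171. Dlgap1 and Rimbp2 were the one pair below 1 in spleen, at 0.914 and 0.987. In the DN1-DN3 KO libraries the median pair was found in 7 and 3 cells, too few to read a ratio.

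**Figure D5:**
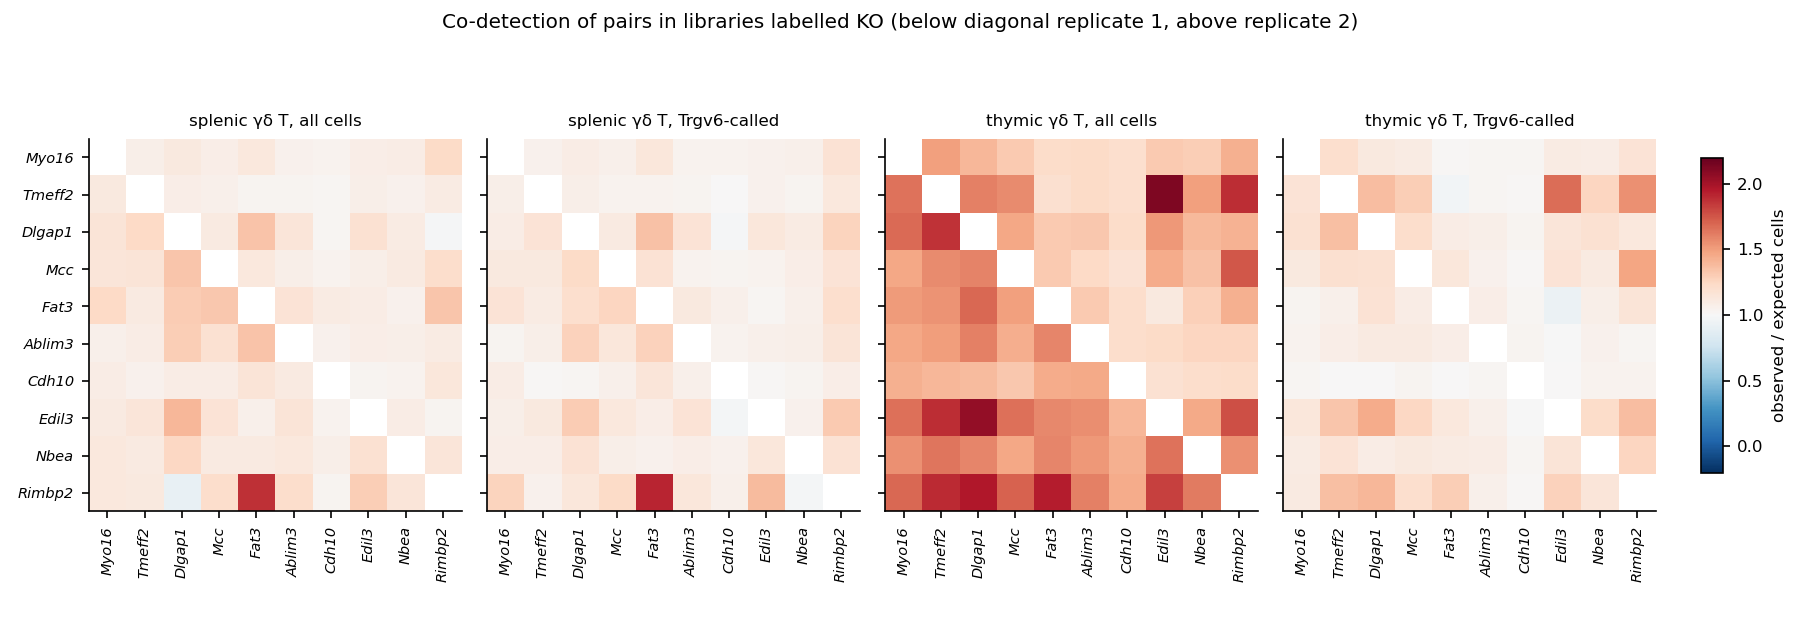
Cells with both of 2 genes over the number expected within strata of depth (colour, white at 1) for all pairs in splenic and thymic KO libraries, below the diagonal in replicate 1 and above it in replicate 2. Thymic cells as a whole had ratios above 1 for all 45 pairs (medians 1.58 and 1.32), and Trgv6-called cells had medians of 1.11 and 1.09.

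With Trgv6 itself, the median ratio over the 10 genes was 1.06 and 1.03 in splenic KO cells and 1.44 and 1.22 in thymic KO cells. Il17a, the signature cytokine, was at 1.55 and 1.30 in thymic KO cells, and Cd3e, found in most T cells, at 1.01 and 1.00. Gfi1 transcripts were at 0.78 and 0.75 in thymic and at 1.04 and 1.04 in splenic KO cells. These ratios come from cells of 1 library each and are a description.

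The likeness of profiles over the 12 libraries is given as a description, since the genes were chosen for being high in the same libraries. The correlation of a gene's log2(CPM + 1) with the mean of the other 9 was 0.867 for Rimbp2 and 0.931 to 0.996 for the rest. By the same measure, the 8 genes most like the set among 6719 screened were Pkib (r = 0.996), Lgals3bp, Clptm1l, Slc15a3, Rnf11, Itgb5, Sec11c and Serpinb1a (r = 0.985). The points share their pools and fall into the compartments and genotypes of the design, so the r is a description only. Slc15a3, a transporter of histidine and small peptides, was at 152 and 140.0 CPM in splenic KO and 1.62 and 2.05 in WT, and at 19.9 and 6.91 against 0.356 and 0.257 in DN1-DN3 cells. Itgb5, an integrin subunit, was at 136 and 171 against 5.16 and 4.32 in spleen.

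Relatives of the 10 genes and lists of neural genes held members called in both directions. Of 31 listed relatives of the 10 genes, 22 could be tested, and 7 were higher and 5 lower in splenic KO, 5 and 4 in thymic γδ T cells and 8 and 2 in DN1-DN3 cells, by edgeR's quasi-likelihood test. Of all genes, 28.6%, 26.0% and 15.2% were called higher and 26.1%, 23.7% and 7.72% lower. The medians of the list were 0.23, -0.13 and 0.15 on the log2 scale. Fat1, an atypical cadherin like Fat3, rose by 6.09 (SE 0.45) in spleen and 7.83 (SE 0.55) in thymus, to 11.4 and 9.88 and to 7.18 and 6.61 CPM. The type II cadherin Cdh20 rose in the same compartments, from 0.903 and 1.11 to 19.3 and 11.4 CPM in spleen and from 1.14 and 0.907 to 25.2 and 20.01 in thymus. Fat4, another Fat relative, fell by 3.30 (SE 0.49) in DN1-DN3 cells, and Wdfy4, a BEACH domain protein like Nbea, fell by 2.42 (SE 0.31) in thymus.

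Synaptic genes were counted in the same way, beside the same shares of all genes. Of 16 presynaptic genes tested, 7, 7 and 2 were higher and 0, 1 and 0 lower in spleen, thymus and DN1-DN3 cells, with list medians of 0.43, 0.54 and 0.01. Stx1a, a syntaxin of vesicle release, rose in all 3, from 8.05 and 7.07 to 35.6 and 40.6 CPM in spleen, and Pclo, which shares the active zone with Rimbp2, rose by 5.01 (SE 0.28) in thymus to 4.2 and 4.56 CPM. Of 16 postsynaptic genes tested, 1, 2 and 1 were higher and 8, 8 and 6 lower, with medians of -0.66, -0.94 and -0.62. Homer3, a postsynaptic scaffold, fell in spleen from 4.49 and 4.86 to 1.65 and 2.07 CPM, and Nrxn3, a neurexin, rose in spleen to 6.19 and 8.75 CPM and in thymus to 17.4 and 37.7. Whether the 2 lists differ from each other was not tested. The change from WT to KO differed between at least 1 pair of compartments for 32 of 70 related and marker genes, and for 51.3% of all genes, by edgeR's test of the difference.

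The markers of neurons, glia and stroma were read as a check on other cells in the sort. Of 7 pan-neuronal genes tested, 2 were higher and 2 lower in spleen, 1 and 2 in thymus and 3 and 0 in DN1-DN3 cells, where 28.6%, 26.0% and 15.2% of all genes were called higher and 26.1%, 23.7% and 7.72% lower. Their summed level was 15.9 and 15.1 CPM in splenic WT and 184 and 259 in splenic KO, and Stmn2, a regulator of microtubules, made up 179 and 255 of it. The sum was 24.3 and 26.2 CPM in WT and 34.5 and 12.2 in KO thymic γδ T cells, and 39.9 and 38.7 against 83.9 and 68.5 in DN1-DN3 cells. What part other cells of the sort had in these sums was not tested. Stmn2 rose by 4.46 (SE 0.77) in spleen and 5.91 (SE 1.09) in thymus. The other 8 genes of the 11-gene list beside Stmn2, Tubb3 and Map2 were led by Uchl1, at up to 4.14 CPM in WT DN1-DN3 cells, Syp, at up to 1.45, and Elavl3, at up to 0.995, while Rbfox3, Elavl4, Nefl, Nefm and Gap43 were at no more than 0.814 CPM in any library, and the glial markers Gfap, Sox10 and Mog at no more than 0.126. Map2 in DN1-DN3 cells was at 1.23 and 0.690 CPM in WT and 19.9 and 8.03 in KO. Tubb3 in the same cells was called higher (0.57, SE 0.18, adjusted p = 0.0453 by edgeR) but not with the pool as a block (adjusted p = 0.0657), nor without WT replicate 1 (0.187), WT replicate 2 (0.158) or KO replicate 2 (0.176). Of 5 glial genes tested 1, 0 and 2 were higher and 2, 1 and 0 lower, and of 5 stromal and epithelial genes 2, 1 and 1 were higher and 2, 2 and 1 lower, beside the same shares of all genes. Nothing is read from counts over so few genes. Epcam, an adhesion molecule of epithelium, was at 71.3 to 87.8 CPM in the DN1-DN3 libraries, at 29.2 and 30.2 in thymic WT against 9.33 and 5.25 in KO, and at 15.4 and 13.3 in splenic WT against 0.726 and 0.734 in KO. Krt5, Foxn1 and Col3a1 were at no more than 0.112 CPM in any library. Pdgfrb, a receptor of pericytes and fibroblasts, was higher in all 3 compartments of KO, at 2.57 and 2.84 CPM in WT against 8.05 and 7.60 in spleen, 9.43 and 9.10 against 22.3 and 16.9 in thymus and 16.7 and 13.6 against 42.6 and 52.4 in DN1-DN3 cells. Cdh5, of endothelium, was higher in spleen, at 0.143 and 0.269 against 3.25 and 2.32 CPM. The summed glial list, nearly all of it Mbp, was lower in KO in spleen, at 103 and 99.0 CPM against 148 and 155 in WT, and in thymus, at 108 and 97.5 against 148 and 140, and higher in DN1-DN3 cells, at 138 and 121 against 95.1 and 87.1. The stromal list, most of it Pecam1 in spleen and thymus, was lower in KO in spleen, at 164 and 162 against 213 and 222 CPM, and in thymus, at 193 and 166 against 275 and 259, and overlapped in DN1-DN3 cells, at 249 and 266 against 256 and 228. None of these sums was tested.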

How the data were processed

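Single-cell RNA-seq of sorted cells was read from 12 libraries, 2 per genotype in 3 compartments. The authors made the deposited UMI counts with Cell Ranger 8.0.1 on GRCm39 (per the submitters' processing notes) and split each pool of WT and KO cells by hashtag antibody with hashsolo. The counts were not normalized. Genotypes were read from the hashtag labels. The 10 genes and the gene lists were chosen with earlier results of these data known.

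Of 97404 barcodes, 96911 passed the filters, which were 500 UMIs and 200 genes as minima and a mitochondrial share of 20% as the maximum. No doublet caller was run. A cell's Trgv call was the Trgv gene with the most UMIs, ties giving no call. Marker gates needed at least 2 UMIs over a list and at most 1 of each other list. Some list members are not reported here. Co-detection was computed in 10 strata of depth. Intervals (95%, exact Poisson or Clopper-Pearson) and the floor of 3 counts cover counting error only.

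UMIs summed per library, or per library and class, were tested with edgeR 4.0.16 (quasi-likelihood, TMM, filterByExpr) in R 4.3.3, with Benjamini-Hochberg adjustment, a threshold of 0.05, and 9543 mitochondrial, ribosomal protein and Gm-numbered genes left out. KO minus WT was fitted without a block, and classes within KO libraries with the library as a block. DESeq2 1.42.0 was an alternative. Cells were handled in Python 3.11.15 with numpy 2.4.6, pandas 2.3.3 and scipy 1.17.1. On simulated data the spleen KO minus WT step (14925 genes) recovered 89% of genes changed by 1 and 100% of those changed by 2 on the log2 scale with 6 false calls, and the splenic class step (13219 genes) 96% and 98% with 13. Same-numbered WT and KO libraries shared a droplet pool, and their deviations from the group means correlated at 0.390 in spleen, 0.0557 in thymus and 0.283 in DN1-DN3 cells. P-values measure the spread between these libraries, and whether they came from separate mice was not given in the sources used here. All 10 genes were named. Of each related list at most 4 called genes per compartment could be named, those with the largest differences among genes averaging 1 CPM or more, and the 8 most-like genes came from those averaging 20 CPM or more. Promoters came from RefSeq windows on GRCm38.p6, and no coordinates were converted.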

Additional observations from a re-analysis of the deposited data

Results flagged for a closer look

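The difference between Trgv6-called and other-called KO cells was larger in thymus than in spleen for Myo16 by 1.23, for Mcc by 0.99, for Ablim3 by 1.15 and for Edil3 by 1.28 on the log2 scale. These 4 passed the edgeR test of the difference itself, with adjusted p from 0.0267 to 0.0483, as did 10.1% of all genes. Since the genes were chosen in libraries rich in Trgv6-called cells, nothing is read from that count. With γδT17-gated cells in both classes the thymic difference was 0.28 for Myo16 (adjusted p = 0.0729 by edgeR) and 0.28 for Mcc (adjusted p = 0.0650). Ablim3 and Edil3 kept their thymic calls in that comparison, which was chosen after seeing the data. The Il2rb gate held 9.30% and 5.13% of thymic KO cells, against 1.22% and 0.676% of splenic KO cells. What part the make-up of the other-called cells had was not tested.

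Among the related and marker genes, 32 of 70 differed between at least 1 pair of compartments in the change from WT to KO by the same kind of test, as did 51.3% of all genes. The 6 described here were also called in opposite directions in the compartments compared. For Map2, a microtubule protein of neurons, DN1-DN3 cells minus spleen was 8.72 (adjusted p = 0.00023). For Cdh5, a cadherin of endothelium, it was -6.14 (adjusted p = 0.000281), and for Lyst, a relative of Nbea, 2.35 (adjusted p = 3.63e-06). Mbp, the myelin basic protein gene, differed by 1.01 between DN1-DN3 cells and spleen and by 0.90 between DN1-DN3 cells and thymus. Tubb3, a neuronal tubulin, differed by 1.87 between DN1-DN3 cells and thymus and by -2.92 between thymus and spleen. Shank2, a scaffold that binds Dlgap1, differed by 6.01 between thymus and spleen (adjusted p = 0.000368). The Shank2 level was 0.271 and 0.460 CPM in thymic WT, 4.89 and 8.84 in thymic KO, 3.54 and 1.38 in splenic WT and 0.790 and 0.647 in splenic KO, where its own call was lost without WT replicate 1 (-0.86, adjusted p = 0.168 by edgeR) and without KO replicate 2 (-1.49, adjusted p = 0.0989).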

How the results depend on the processing

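Of 1262 values recomputed under an alternative, 141 values of a whole comparison and 1032 of single genes kept their direction and their side of the threshold, or their size where no test applied. Splenic class differences near 0 changed sign without KO replicate 1 for Tmeff2 (-0.031, against 0.17 without KO replicate 2), Dlgap1 (-0.022, 0.13) and Nbea (-0.086, 0.30), and for Rimbp2 without KO replicate 2 (0.015, against -0.17 without replicate 1). Mcc there was -0.020 in γδT17-gated cells alone, an alternative chosen after seeing the data. Dlgap1 in DN1-DN3 cells, KO minus WT, ran from -0.12 without KO replicate 1 to 0.16 without KO replicate 2, and was -0.06 without WT replicate 1. In spleen 1 gene was called without the low-count filter and 1 with the splenic sums alone. In thymus γδT17-gated cells gave 4 calls and a median of 0.35, and leaving out a replicate gave medians from 0.93 to 1.73. In DN1-DN3 cells the gate comparison called 4 to 6 of the 10 genes with a replicate left out, where 19.1% and 23.6% of all genes were called higher, and lost Rimbp2 with equal numbers of cells (6.93, adjusted p = 0.137). Related genes called lower in spleen numbered 12 to 20 with a replicate left out (19 with all), and those called higher in DN1-DN3 cells 11 to 17 (17 with all), and 9 with the 4 libraries alone. Mean co-detection in spleen was 1.16 without depth strata and 1.17 in thinned cells, against 1.11. With the pool as a replicate block KO minus WT called 8647, 8011 and 4282 genes in spleen, thymus and DN1-DN3 cells, against 8173, 7419 and 3422, and of the results given only Tubb3 in DN1-DN3 cells lost its call (adjusted p = 0.0657). Without the library block the class comparison called 8, 3545 and 6688 genes against 28, 5316 and 7263, and Dlgap1 in thymus gained a call. Counts over all genes moved by over 1.5 times also in DN1-DN3 cells (2074 with the 4 libraries alone, 1958, 1677 and 1929 without KO replicate 1, WT replicate 1 and WT replicate 2) and for the classes (spleen 190 unfiltered, 72 with splenic sums, 50 by DESeq2, 16 with calls of at least 2 UMIs, 101 without KO replicate 2 and 7 γδT17-gated, thymus 254 γδT17-gated). The causes were not tested. Depth limits Fat3 and Rimbp2 in DN1-DN3 cells, with 24 and 14 UMIs over both KO libraries.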

Other observations

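Trgv4 was the call of 582 and 449 DN1-DN3 KO cells. Their median over the 10 genes was 12.6 and 4.15 CPM, against 11.9 and 4.80 in cells with no call. They held Cdh10 at 122 and 23.0 CPM, Tmeff2 at 93.01 and 24.6 and Edil3 at 36.4 and 11.8. The 249 and 265 Trgv4-called WT cells of the same sort held Cdh10 at 5.03 and 6.36 CPM and Tmeff2 at 1.12 and 0.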
